A study of Homo sapiens with 3 samples.

Results

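The short arm of chromosome 6 (6p) carried 502 of the 23641 peaks of 8-oxo-7,8-dihydro-2'-deoxyguanosine (8-oxodG) mapped in G0-arrested MCF10A cells. A peak was counted on 6p when its summit lay on chromosome 6 before the border of bands 6p11.1 and 6q11.1 in the genome build hg18, where the short arm meets the long arm (6q). The long arm held 656 peaks. MCF10A is an established human breast epithelial line that does not form tumours, and G0 is the resting state outside the cell cycle. The 3 samples formed 1 group, in 2 experiments. Per the labels' protocols, the cells grew for 48 hours in DMEM-F12 medium with 5% horse serum and received no treatment. Sonicated genomic DNA was then precipitated with an antibody against 8-oxodG (Millipore) and sequenced. The labels do not say how the arrest was brought about, and nothing in them says whether the samples came from separate cultures.

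The descriptions of all 3 samples name the same 1 deposited peak list, so no value below has a replicate error. How the samples were pooled is not given. Intervals are 95% wide, exact, and cover counting error only, except in the fits that take their error from the spread between windows. Sequencing depth is unknown, and no input or control antibody library was analysed here. Every height is therefore a value of the deposited list. More copies of a region and more 8-oxodG per copy cannot be told apart in these values.

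8-oxodG forms when reactive oxygen species attack guanine, the base most easily oxidised, and is normally cut out by base excision repair. Chromosome arm 6p holds a pair of well-known gene-dense regions. The first is the large cluster of replication-dependent histone genes, which package newly made DNA and are transcribed mainly in S phase, a phase that G0 cells do not enter. The second is the major histocompatibility complex (MHC), whose class I and class II genes present peptides to T cells and whose class III genes encode complement factors and cytokines. In the RefSeq gene table (assembly GRCh38.p14, used for names and order only), chromosome 6 has 55 protein-coding histone genes, from H2AC1 to H2BC17. Their run is broken between H4C8 and H2BC11 by 9 other genes, 6 of them butyrophilin genes, a family of immunoglobulin-like receptors. The HLA genes of the MHC number 19, and 128 protein-coding genes lie from HLA-F to HLA-DPB1 in that order. Positions of genes on hg18 were not analysed here, so no peak was assigned to a gene.

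Across the arm, peaks were as dense as elsewhere in the genome and denser than on 6q. The 502 peaks in 58.8 Mb of sequence gave 8.54 peaks per Mb (7.81 to 9.32). On the other chromosomes the density was 8.44 per Mb, a ratio of 1.01 (0.925 to 1.11), and the difference was not detectable by an exact conditional test of the counts (two-sided, adjusted p = 0.88 over 7 density comparisons). By density 6p stood 23rd of 42 arms, between 11q at 8.61 and 1q at 7.96.

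On 6q the density was 6.05 per Mb (5.59 to 6.53), and that arm stood 37th of 42. The ratio of 6p to 6q was 1.41 (1.26 to 1.59, exact conditional test, adjusted p = 5.63e-08). Neighbouring peaks are not independent, so the ratio was also fitted with an error taken from the spread between 5692 windows of 0.5 Mb over the whole genome (quasi-Poisson fit). That fit gave an interval of 1.14 to 1.74 and an adjusted p of 0.00956. With windows of 1 Mb the adjusted p was 0.0579, just past the threshold of 0.05. The background at summits, which is the local fragment level implied by pileup and fold enrichment, was also higher on 6p, with a median of 0.944 fragments against 0.849. Scaled by this background the ratio was 1.27 (1.13 to 1.43), and with the MHC left out of 6p it was 1.34 (1.18 to 1.51). Its part in the result was not tested further.

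The ratio between the arms was similar in the 4 Giemsa classes compared, gneg, gpos50, gpos75 and gpos100. Giemsa staining divides chromosomes into light, gene-rich bands (gneg) and increasingly dark, gene-poor bands (gpos25 to gpos100). The ratio of 6p to 6q was 1.33 (1.12 to 1.58) in gneg bands, 1.38 (1.00 to 1.90) in gpos50, 1.35 (0.951 to 1.92) in gpos75 and 1.34 (0.966 to 1.84) in gpos100. Class gpos25, with 10.4 peaks per Mb on 6p, has no band on 6q. The centromeric class (acen), for which no ratio was computed, held 0 peaks in 0.488 Mb on 6p and 4 in 1.41 Mb on 6q. The ratios of the darker classes were thus close to that of gneg, but their intervals reached to 1 or below. A higher density of 6p in those classes was therefore not resolved by counting error.

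**Figure D1:**
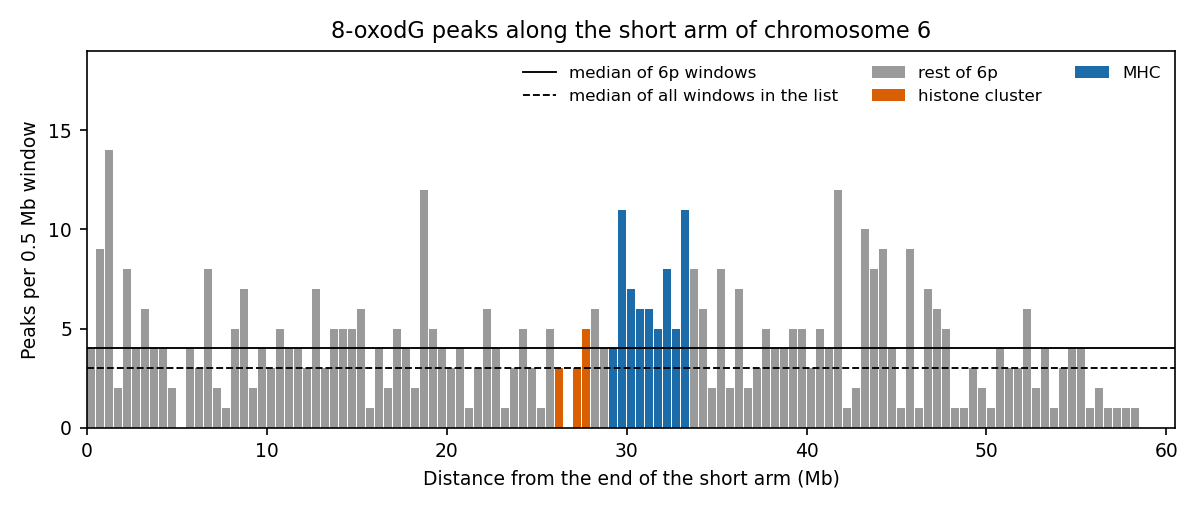
Peaks in each 0.5 Mb window along 6p, plotted by distance from the end of the arm, with the histone cluster in orange, the MHC in blue and the rest of the arm in grey. Horizontal lines mark the medians of the 6p windows (4 peaks) and of all windows in the list (3 peaks). All 9 MHC windows hold 4 to 11 peaks, and the histone cluster includes a window with none.

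Along the arm, density was high near the chromosome end, in the MHC and in 6p21.1, and low towards the centromere. On 6q the terminal band 6q27 was also dense, with 108 peaks, or 17.1 per Mb (14 to 20.6). Band 6q12, towards the centromere, had 3.85 per Mb (2.49 to 5.68). A dense end and a sparser centromeric part were thus not particular to 6p. The 118 windows of 0.5 Mb on 6p held a median of 4 peaks, with quartiles of 2 and 5. Windows of at least 10 peaks numbered 6, or 5.08%, against 7.38% of all windows in the list, and windows without a peak numbered 3, or 2.54%, against 6.01%. Both shares were below those of the list, a difference that was not tested.

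The 5 windows with most peaks lay in 4 parts of the arm. The window from 1 to 1.5 Mb in 6p25.3, near the chromosome end, held 14 peaks. Windows from 18.5 to 19 Mb in 6p22.3 and from 41.5 to 42 Mb in 6p21.1 held 12 each. The remaining 2, with 11 peaks each, were the windows from 29.5 to 30 Mb and from 33 to 33.5 Mb, near either end of the MHC. Among these windows the median fold enrichment was highest in 6p25.3, at 13.4, and lowest in 6p21.1, at 8.44. It was 11.8, 10.5 and 9.64 in the windows starting at 18.5, 29.5 and 33 Mb. The median background at summits was 1.42 fragments in the 6p21.1 window and 1.10 in the 6p25.3 window. These differences rest on few peaks and were not tested.

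Among bands, 6p21.32 was the densest, with 31 peaks in 1.7 Mb, or 18.2 per Mb (12.4 to 25.9). This band holds the centromeric part of the MHC. It was followed by the terminal band 6p25.3 with 13.5 per Mb (9.18 to 19.2), by 6p21.33 with 13.0 (8.49 to 19.1), which also lies in the MHC, and by 6p21.1 with 11.96 (9.01 to 15.6). Bands 6p25.2 (11.1 per Mb) and 6p23 (10.5) came next. The intervals of these 6 bands overlapped one another, so their order is not resolved by counting error.

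Intermediate densities were found in 6p22.1 (8.95 per Mb), 6p21.31 (8.75), 6p24.1 (8.70), 6p12.2 (8.67), 6p21.2 (7.63), 6p22.3 (7.62), 6p24.3 (7.32), 6p25.1 (7.24), 6p12.3 (6.95), 6p24.2 (6.67) and 6p22.2 (6.54). Towards the centromere the density was lower, at 4.57 per Mb (2.83 to 6.98) in 6p12.1 and 2.61 (0.538 to 7.62) in 6p11.2, which held 3 peaks. Band 6p11.1, of which 0.488 Mb is sequenced, held 0 peaks. A count of 0 allows up to 6.15 per Mb by the limit of 3 counts, and the exact two-sided interval reaches 7.56. Whether reads map equally well in all these bands was not tested.

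Light bands of 6p were denser than dark bands. The 16 bands of classes gneg, gpos25 and gpos50 together held 9.52 peaks per Mb (8.59 to 10.5), and the 3 bands of gpos75 and gpos100 held 6.65 (5.53 to 7.93), a ratio of 1.43 (1.17 to 1.77). On 6q the same classes had 6.81 and 4.83 per Mb. Taken singly on 6p, gpos50 (8.16 per Mb, 6.23 to 10.5) lay close to gpos75 (7.62, 5.83 to 9.795). Class gpos100 had 5.905 per Mb (4.53 to 7.57). This contrast was not fitted with the spread between windows. Across the 19 bands of 6p with peaks, which share 1 list, density was almost unrelated to the median background at summits (Spearman's rho = 0.10) and to the median fold enrichment (rho = -0.18).

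**Figure D2:**
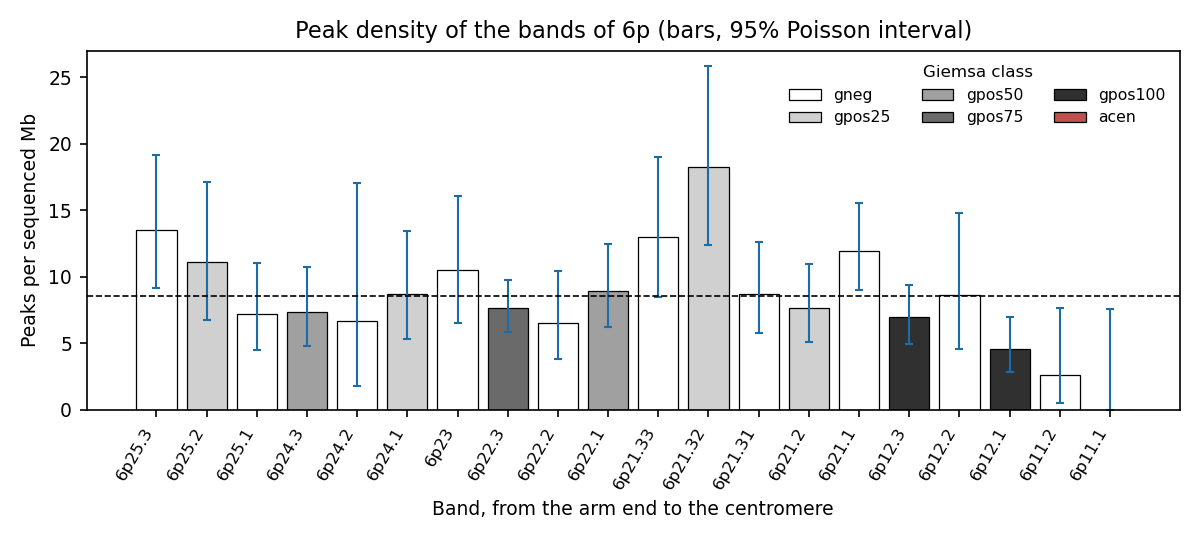
Peaks per sequenced Mb in each band of 6p, in order from the arm end to the centromere, shaded by Giemsa class, with 95% Poisson intervals in blue and the density of the whole arm (8.54) as a dashed line. Band 6p21.32 stands highest at 18.2, and 6p11.1 has no bar because it held no peak.

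The distal 10 Mb of 6p held 93 peaks, or 9.35 per Mb (7.55 to 11.5), and the arm beyond it, without histone cluster and MHC, 7.91 (7.09 to 8.81). The ratio of 1.18 (0.929 to 1.49) did not pass the exact conditional test (adjusted p = 0.274). The high values of 6p25.3 and 6p25.2 were thus followed by bands close to the mean of the arm. Distal peaks had a median pileup of 25 fragments, against 22 over 6p.

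The MHC, taken from 29 to 33.5 Mb, held 63 peaks in 4.5 Mb, or 14 per Mb (10.8 to 17.9). The rest of 6p, without the MHC and the histone cluster, held 428 peaks in 52.3 Mb, or 8.19 per Mb (7.43 to 9). The ratio was 1.71 (1.29 to 2.23), which passed the exact conditional test (adjusted p = 0.000742). In the quasi-Poisson fit, which takes its error from the spread between all windows in place of the exact counting error, the same ratio had an interval of 1.06 to 2.77, and the call was lost (p = 0.0291, adjusted p = 0.102). With the spread of the chromosome 6 windows alone, an alternative chosen after seeing the data, the interval was 1.19 to 2.46 and the adjusted p 0.0119. The background at summits had the same median of 0.944 fragments in the MHC and in the rest of 6p. Many arms share this median, among them 1p, 2p and 17q, so its equality is a weak comparison. Whether the local level was equal was not tested.

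No single window made up the excess. From 29 to 33.5 Mb, successive windows of 0.5 Mb held 4, 11, 7, 6, 6, 5, 8, 5 and 11 peaks. All 9 were at or above the 6p median of 4. Leaving out each window in turn gave ratios from 1.59 to 1.80, and without either window of 11 peaks the adjusted p was 0.0112 in the exact test. In the fit over all windows the adjusted p then lay between 0.0699 and 0.294.

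Density was similar along the complex. The telomeric segment, from 29 to 31.5 Mb and mainly of class I genes, held 34 peaks, or 13.6 per Mb (9.42 to 19). The middle segment, from 31.5 to 32.5 Mb and mainly of class III genes, held 13 peaks in 1 Mb (6.92 to 22.2 per Mb). The centromeric segment, from 32.5 to 33.5 Mb and mainly of class II genes, held 16 (9.15 to 26 per Mb). These marks are approximate and were not checked against an annotation of hg18. The middle segment and the outer segments had a ratio of 0.91 (0.454 to 1.7), and the exact conditional test found no detectable difference (adjusted p = 0.88).

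The peaks of the MHC were lower than those elsewhere on the arm by their medians. Median summit pileup was 18 fragments (quartiles 15 and 28.5), against 22 (15 and 37) in the rest of 6p and 25 in the whole list. Fold enrichment, the authors' own value for each peak, had a median of 10.1 in the MHC, 11.2 in the rest of 6p and 11.7 in the list. Only 19 of the 63 peaks, or 30.2% (19.2 to 43.0), reached the median fold enrichment of the list, which by construction 50% of all peaks reach. In the rest of 6p, 46.3% (41.5 to 51.1) did. The difference in height was not tested, since peaks of 1 list are not replicates. Median width was 404 bp in the MHC and 446 bp in the rest of 6p. Within the complex it was 394.5 bp in the telomeric, 516 bp in the middle and 405 bp in the centromeric segment, with a median pileup of 18 in each.

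Divided by fold enrichment, the MHC had a similar ratio to the rest of 6p in each class below a fold of 20. The class of at least 20 had a lower ratio, on few MHC peaks and with an interval that includes 1. From fold 7 to below 10 the MHC had 6.67 peaks per Mb (4.50 to 9.52) and the rest of 6p 3.33 (2.85 to 3.86), a ratio of 2.0 (1.31 to 2.96). From 10 to below 15 the ratio was 1.94 (1.14 to 3.13), and from 15 to below 20 it was 2.01 (0.871 to 4.12). At a fold of at least 20 the MHC held 4 peaks, or 0.889 per Mb (0.242 to 2.28), and the rest of 6p 1.57 (1.25 to 1.95), a ratio of 0.567 (0.151 to 1.51). Such strong peaks made up 6.35% of the MHC peaks (1.76 to 15.5), 17.7% of those on 6p and 20.3% of the whole list. Among peaks of at least the median fold enrichment of the list the density ratio was 1.115 (0.657 to 1.79, exact test, adjusted p = 0.861).

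**Figure D3:**
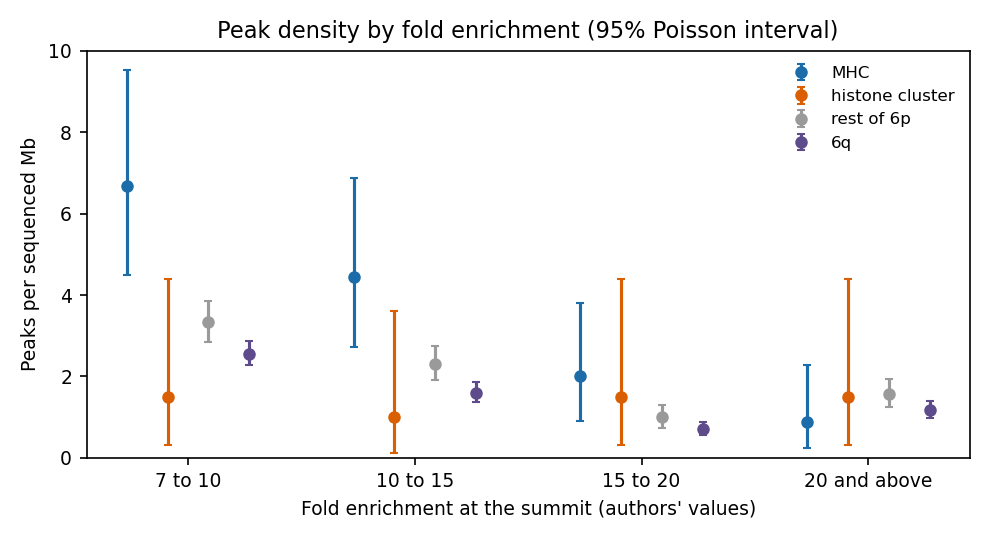
Peaks per sequenced Mb in 4 classes of the authors' fold enrichment, for the MHC (blue), the histone cluster (orange), the rest of 6p (grey) and 6q (purple), with 95% Poisson intervals. The MHC points stand about 2 times as high as those of the rest of 6p below a fold of 20, and lower above it.

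A few MHC peaks were nevertheless strong. The strongest lay in 6p21.32 (chromosome 6, 32524862 to 32525531), with 87 fragments at its summit and a fold of 45.3, which ranked 308th in the list. The next, in 6p21.33 (31663630 to 31664145), reached 63 fragments and a fold of 35.8. The third (30761696 to 30762364), also in 6p21.33, reached 50 fragments and a fold of 23.2. They fell 1 each in the centromeric, middle and telomeric segments.

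The median distance between neighbouring midpoints was 42475 bp in the MHC, 65596 bp in the rest of 6p and 62559 bp in the list. In the histone cluster it was shorter still, at 40407 bp over 10 pairs, despite the lower density there. Short distances were thus not particular to the MHC. Pairs of neighbours within 1 kb made up 4.84% of the pairs in the MHC (1.01 to 13.5). In the rest of 6p they made up 2.35% (1.13 to 4.28), and in the list 3.04%. Runs of at least 3 peaks with gaps of at most 5 kb numbered 6 on 6p, and 3 of them began in the MHC. Such runs were counted on 6p only, so their number has no share of the list beside it and is a description. The longest such run (33495651 to 33510075) had 6 peaks in 14425 bp and crossed the centromeric boundary of the MHC at 33.5 Mb. It includes the widest MHC peak, of 1197 bp (33496125 to 33497321, fold 16.3), and just outside the boundary a peak of 1644 bp (33499834 to 33501477, fold 7.89) over a background of 2.67 fragments. The other runs in the complex each had 4 peaks, from 29698398 to 29708224 and from 33258885 to 33265806. Where the boundary was drawn thus decided to which side some peaks of that run were counted.

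The histone cluster, taken from 26 to 28 Mb, held 11 peaks in 2 Mb, or 5.50 per Mb (2.75 to 9.84). The ratio to the rest of 6p was 0.672 (0.333 to 1.21), which did not pass the exact conditional test (adjusted p = 0.352), and the interval allows both a lower density and one slightly above the rest of the arm. With the cluster widened by 0.5 Mb on each side the ratio was 0.902. Against the MHC the ratio was 0.393 (0.187 to 0.752, exact test, adjusted p = 0.00538), but the call was lost with the error taken from all windows (interval 0.122 to 1.26, adjusted p = 0.272).

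Within the cluster the peaks fell into separate groups. The 4 windows from 26 to 28 Mb held 3, 0, 3 and 5 peaks. The first 3 peaks lay from 26289274 to 26491253, and the other 8 from 27232620 to 27616422. Between these groups, 741366 bp (26491254 to 27232619) had no peak, the third longest stretch between neighbouring peaks of 6p. No peak of the cluster lay beyond 27616422. The 1 Mb between the cluster and the MHC, from 28 to 29 Mb, held 10 peaks, with a median fold of 12.3.

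The 11 peaks of the histone cluster had a higher median pileup and fold enrichment than the rest of the arm, given here without intervals. Their median pileup was 30 fragments (quartiles 19.5 and 46.5) and their median fold enrichment 15.9, against 22 and 11.2 in the rest of 6p. The median background was 0.944 fragments in both, a value that many arms share. The strongest (26449956 to 26450514) reached 80 fragments and a fold of 45.3, which ranked 303rd in the list. The next (27575896 to 27576564), also the widest at 669 bp, reached 69 fragments and a fold of 36.6. The third (27331346 to 27331994) reached 53 fragments and a fold of 22.4. The share with a fold of at least 20 was 27.3% (6.02 to 61.0), an interval that includes the 20.3% of the list and the 19.2% of the rest of 6p. The lowest were at folds of 7.09 and 7.83, close to the lowest value in the list. With 11 peaks of 1 list, a difference in height from the rest of the arm was not tested.

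**Figure D4:**
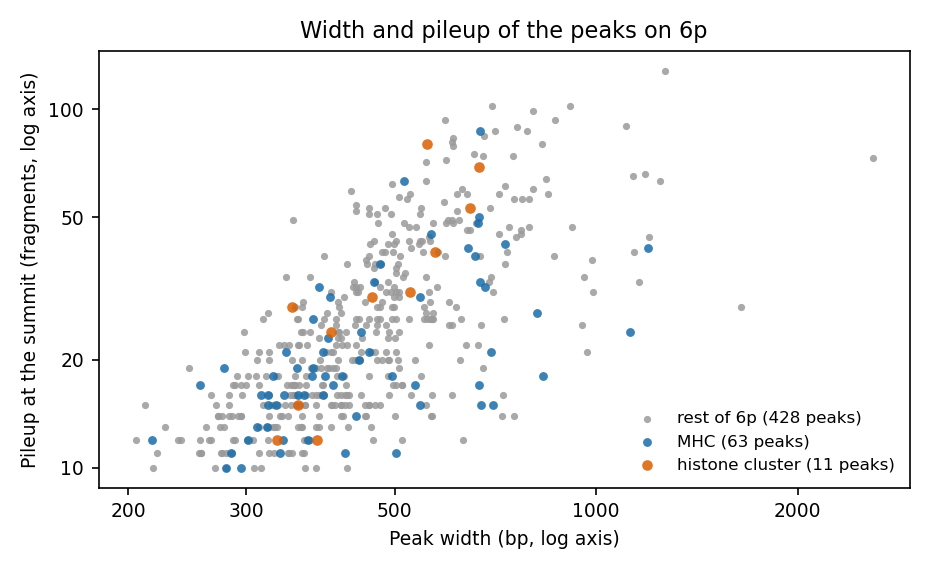
Width in bp and pileup in fragments at the summit of each of the 502 peaks on 6p, on log axes, coloured as histone cluster (11 peaks), MHC (63) or rest of 6p (428). Pileup rises with width, and most MHC points lie low in the cloud, with a median of 18 fragments.

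Over the arm as a whole, peaks were slightly lower and narrower than in the list. Their width had a median of 442 bp (quartiles 359 and 556.8) against 452 bp, and their pileup a median of 22 (15 and 35, range 10 to 128) against 25. Fold enrichment had a median of 10.98 and ranged from 7.02 to 53.4. By median fold 6p stood 37th of 42 arms, beside 6q at 38th. A pileup of at least 50 was reached by 59 peaks, or 11.8% (9.07 to 14.9), against 18.2% of the list. On 6q this share was 13.0% (10.5 to 15.8) and the median pileup 21, so low pileup was not particular to 6p. The peaks of 6p covered 244 kb, or 0.415% of the sequence of the arm, compared with 0.450% over the list and 0.304% on 6q.

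Wide peaks were also less frequent. A width of at least 1 kb was reached by 12 peaks, or 2.39% (1.24 to 4.14), against 5.56% of the list and 3.35% (2.11 to 5.03) on 6q. The widest spanned 2591 bp in 6p21.31 (34146792 to 34149382). Its fold was only 7.93, since its pileup of 73 stood over a background of 8.34 fragments, the highest on the arm. The next was the peak of 1644 bp beside the MHC, named above. Peaks of 1269 bp in 6p22.3, 1247 bp in 6p25.3 (1347830 to 1349076, fold 14.6) and 1198 bp in 6p21.1 (41969562 to 41970759, fold 12.2) followed. Wide peaks thus included both strong and weak ones.

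The strongest peak of 6p lay in 6p22.3 (18673314 to 18674582). Its pileup of 128 and its fold of 53.4 were both the highest of the arm, and its fold was the 95th highest of the list. It was followed in fold by peaks in 6p12.3 (45718306 to 45718982, pileup 74, fold 46.0), in the histone cluster (45.3), in the MHC (45.3) and in 6p24.3 (9045453 to 9046009, pileup 71, fold 42.6). The 5 strongest peaks thus came from 5 different bands.

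The tallest peaks after that in 6p22.3 stood over more background. The peak at 1091618 to 1092316 in 6p25.3 had a pileup of 102 over a background of 2.04 fragments (fold 33.8), and that at 54282955 to 54283867 in 6p12.1 had a pileup of 102 over 2.20 (fold 32.2). The peaks at 17077786 to 17078591 (pileup 99, fold 39.4) and at 19427089 to 19427683 (pileup 93, fold 34.4) lay in 6p22.3. Over the 502 peaks, which are not independent, fold rose with width (Spearman's rho = 0.527) and pileup with background (rho = 0.521), while fold and background were almost unrelated (rho = 0.083). Since every peak passed a minimum fold, pileup cannot be low where background is high, which adds to the second relation. Background was itself computed from pileup and fold, so both relations with background are partly fixed by construction.

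Between neighbouring peaks of 6p, stretches without a peak were shorter than 1 Mb. The longest was 0.986 Mb in 6p25.1 (4797830 to 5784117), followed by 0.766 Mb in 6p12.3 (48014930 to 48780445) and by the stretch in the histone cluster. Pairs of neighbours within 1 kb numbered 13 of 501, or 2.59% (1.39 to 4.40), against 3.04% in the list. At the arm boundary, the last peak of 6p (58248665 to 58249234) reached 27 fragments and a fold of 15.7. The first of 6q (62710709 to 62711230) reached 53 fragments and a fold of 24.96. No peak lay between them, so any boundary placed there gives the same 502 peaks.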

How the data were processed

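The authors deposited 1 peak list for 3 samples, with 1-based positions on hg18, summit signal (pileup), fold enrichment and −log10 of p-value and q-value, per the file headers. BWA, SAMtools and bedtools are named in the submitters' processing notes; the sources used here do not give caller, control, settings or pooling. The decimal points of fold, p and q were lost in the deposited table. They were restored from the Poisson relation of pileup, fold and p. Of 23641 peaks, 23640 met this relation within 0.01, all on chromosome 6 included. Simulated data made with the same relation were returned, which tests the placing of points and not the relation itself. The background at a summit is (pileup + 1) / fold − 1.

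Peaks were placed by midpoint, and by summit for the arm. Densities are per Mb of sequenced contig (IRanges 2.36.0), with bands from circlize 0.4.16 under R 4.3.3. Windows of 0.5 Mb needed 50% sequence. Counts were compared by the exact conditional (binomial) test, two-sided, adjusted over 7 comparisons by the Benjamini-Hochberg method, and by a quasi-Poisson fit over all windows (statsmodels 0.14.6, scipy 1.17.1, Python 3.11.15). Width, pileup and fold were described and not tested. Named were the 5 peaks highest in fold, in pileup and in width, the 3 strongest and the widest peak of each cluster, the 5 fullest windows, the 3 longest stretches between neighbouring peaks and every band. The members, regions and comparisons were chosen with earlier results of these data known, and the adjusted p-values do not cover that choice. No genome of build hg18 was used here, so no sequence is shown.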

Additional observations from a re-analysis of the deposited data

How the results depend on the processing

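All samples share the same list, so no sample could be left out, and no paired analysis was possible because there is 1 group and 1 list. The higher density of 6p than of 6q kept its direction in all 12 alternatives (ratio 1.27 to 1.53) and its call in 11. With a quasi-Poisson fit over windows of 1 Mb in place of the exact test the ratio was 1.41 (adjusted p = 0.0579). Placement by summit repeated the main values, so it adds no separate check. Leaving the MHC out of 6p and the fit over chromosome 6 windows were not planned in advance. The ratio of 6p to the other chromosomes, never called, crossed 1 among peaks of at least the median fold enrichment (0.899), −log10 q (0.857) and width (0.979). For −log10 q its interval of 0.745 to 0.981 lay below 1, while the exact test gave an adjusted p of 0.0774.

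The MHC excess kept its direction in all 14 alternatives and its call in 9. Among these 9, placement by summit and scaling by background repeated the main values, so they add no separate check. Leaving out the fullest MHC window and the fit over chromosome 6 windows were not planned in advance. The call was lost among peaks of at least the median fold (1.115), −log10 q (1.04) and width (1.43), where the ratio itself was lower. It was also lost in the quasi-Poisson fit with windows of 0.5 Mb (1.71) and 1 Mb (1.75). The lower density of the histone cluster than of the MHC was lost in the same settings (0.829, 0.927, 0.519, 0.393 and 0.387) and in the fit over chromosome 6 windows, in place of the exact test (0.393, adjusted p = 0.0809). The middle against the outer MHC segments, never called, crossed 1 among peaks of at least the median fold (1.25), −log10 q (1.46) and width (1.85). The cause was not tested. The histone cluster against the rest of 6p (0.666 to 0.963) and the distal 10 Mb (1.17 to 1.44) were called in no alternative. For −log10 q the interval of the distal 10 Mb, 1.015 to 2.01, lay above 1, while the exact test gave an adjusted p of 0.0774. By construction the density of 6p was 3.81, 3.64 and 4.15 per Mb among peaks of at least the median fold, −log10 q and width.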
